A study of Arabidopsis thaliana with 12 samples.

Results

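The regions described here are stretches of the Arabidopsis thaliana genome that carried the histone mark H3K27me3 in wild-type seedlings and kept it over only a minor piece of their length in the val1val2 double mutant. A wild-type domain was an interval of 200 bp or more covered by peaks in both wild-type lists. It was called shortened when the val1val2 peaks of either list together covered more than 0 but less than 50% of its length. This held for 428 of 8155 wild-type domains, or 5.25%. Of the other domains, 908 had no val1val2 peak, 3570 had 50% or more but not all of their length covered and are called trimmed here, and 3249 were covered from end to end. Within a shortened domain, the bases under a peak of either val1val2 list are called the kept part, and the remaining bases the lost part. The domains were thus chosen by their measured H3K27me3 cover in both genotypes, and the amount lost is a description that carries no test.

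Chromatin immunoprecipitation with sequencing was done on 14-day-old whole seedlings of the Col-0 ecotype, with an antibody to H3K27me3 in val1val2 and in wild type (2 samples each), and with an antibody to GFP in VAL1-GFP val1 seedlings (2 samples) and VAL2-GFP val2 seedlings (1 list used). The 4 inputs of the series entered no comparison of their own, and the promoters of the GFP transgenes and the nature of the val1 and val2 alleles are not stated in the labels used here. The peak lists carry no read totals, so the depth is unknown, and they hold no expression values with which to check the tissue or the loss of VAL1 and VAL2. In whole seedlings, fewer cells carrying the mark and less mark per cell cannot be told apart.

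H3K27me3 is laid down by Polycomb repressive complex 2 and is found over genes that are switched off in a given tissue or stage. In Arabidopsis the mark typically spreads over a whole gene body, after a start at short nucleation sites. VAL1 and VAL2 are B3-domain proteins that bind the RY element, a short motif known from promoters of seed genes, and they repress the seed programme in seedlings and interact with Polycomb proteins.

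The following sequences of 101 bp are centred on the strongest VAL1 summit in 8 of the shortened domains. The first 7 are shown because the summit lies in the lost part and holds the motif, and the last, at OLEO4, because its summit lies in the kept part and holds none. Capitals mark the RY core, searched as TGCATG and, for the other strand, CATGCA, with overlapping matches counted. All are read 5′ to 3′ on the plus strand of TAIR10.
MYB93, chr1:12706802-12706902: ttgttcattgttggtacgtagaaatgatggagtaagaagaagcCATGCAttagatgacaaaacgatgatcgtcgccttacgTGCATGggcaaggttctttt
CLE41, chr3:9045285-9045385: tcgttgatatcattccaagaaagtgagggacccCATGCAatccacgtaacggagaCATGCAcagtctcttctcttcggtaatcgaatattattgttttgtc
DOG1, chr5:18591851-18591951: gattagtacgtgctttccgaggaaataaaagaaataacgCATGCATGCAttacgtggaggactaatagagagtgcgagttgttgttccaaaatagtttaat
MYB51, chr1:6393315-6393415: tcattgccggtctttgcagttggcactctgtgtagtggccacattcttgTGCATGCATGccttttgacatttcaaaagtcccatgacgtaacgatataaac
AtVEX1, chr5:25231897-25231997: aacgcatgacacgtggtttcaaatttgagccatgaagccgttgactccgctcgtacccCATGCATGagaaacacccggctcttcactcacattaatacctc
SGR9, chr5:622427-622527: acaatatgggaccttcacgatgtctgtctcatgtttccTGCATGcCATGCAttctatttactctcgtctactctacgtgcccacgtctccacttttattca
GA3OX2, chr1:30204635-30204735: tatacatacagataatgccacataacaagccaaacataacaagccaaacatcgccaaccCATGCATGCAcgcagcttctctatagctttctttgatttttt
OLEO4, chr3:10243912-10244012: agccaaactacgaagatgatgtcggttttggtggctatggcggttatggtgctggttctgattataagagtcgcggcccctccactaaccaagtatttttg
The MYB93, CLE41 and SGR9 windows had 2 separate cores, and DOG1, MYB51 and GA3OX2 each had 3 overlapping matches in a single run. A match is a description of the letters and was not tested as a binding site.

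Shortened domains were long in wild type and short in val1val2. Their median length was 2060.5 bp, with a range of 237 to 8163 bp, against 753 bp for domains absent from val1val2, 2349 bp for trimmed domains and 1275 bp for wholly covered ones. Together they spanned 0.956 Mb, of which 646 kb, or 67.6%, was lost and 310 kb was kept. The median domain kept 34.7% of its length under the union of the val1val2 lists. In 395 domains the kept part was a single piece. They lay on every chromosome, between 4.35% of the wild-type domains of chromosome 3 and 6.51% of those of chromosome 2. Exchanging the genotypes in the rule gave a group of like size, with 558 of 9663 val1val2 domains, or 5.77%, shortened in wild type.

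The val1val2 replicates gave a like amount of cover but differed in whether a piece was called at all. Replicate 1 covered a median of 28.6% and replicate 2 a median of 28.7% of a shortened domain. The covers of a domain differed by a median of 5.87 percentage points, and were within 10 points in 276 of 428 domains. A peak was present in both val1val2 libraries in 333 domains. In 42 domains replicate 1 had none and in 53 replicate 2 had none, so the kept part of these domains rests on a single library. The kept peaks were often weak: −log10 q, the significance given by the peak caller, was 2 or more in both val1val2 libraries at 161 domains, against 356 domains for both wild-type libraries. Fold enrichments below are the authors' own values for whole peaks, which differ in width. Over the 333 domains with a val1val2 peak in both libraries, both val1val2 folds were below both wild-type folds at 208 and above both at 87. These domains were chosen for low val1val2 cover, and the same counts were not made over all wild-type domains. There the wild-type libraries had median folds of 1.94 and 1.92, while the median was 1.99 for each val1val2 library.

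**Figure D1:**
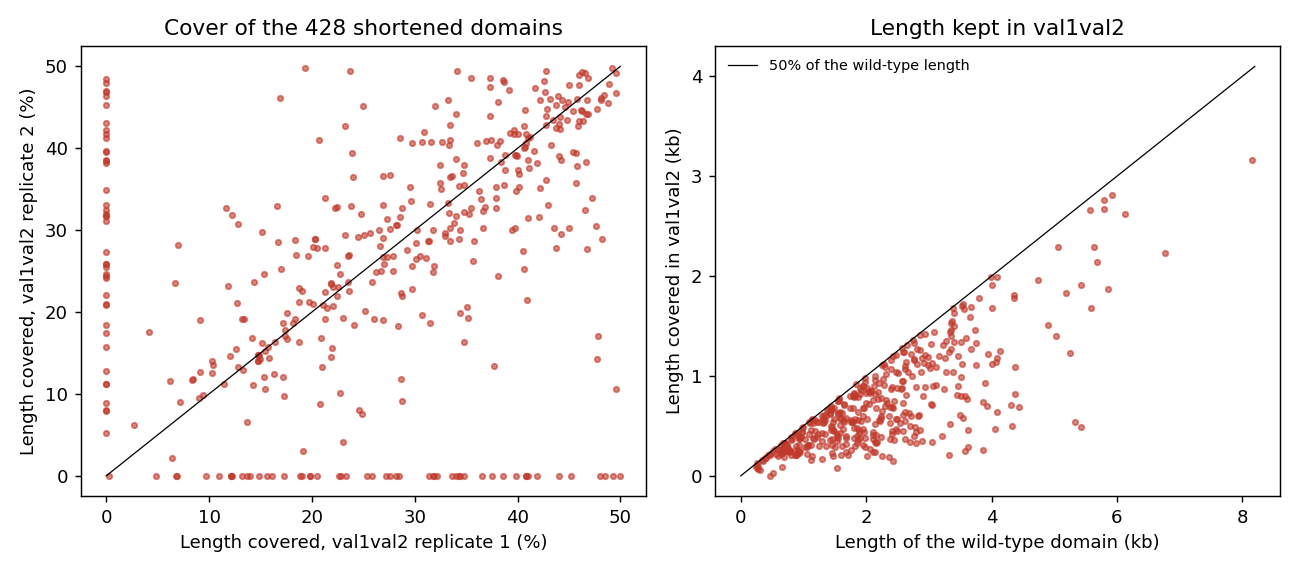
Left, share of each shortened domain covered in val1val2 replicate 1 (x axis, %) against replicate 2 (y axis, %), 1 point per domain, with the line of equality; points on an axis are the 42 and 53 domains with no peak in replicate 1 or 2. Right, wild-type domain length (x axis, kb) against the length covered by either val1val2 list (y axis, kb); all points lie below the 50% line by the rule, and the longest domain is 8163 bp.

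The piece that was kept lay mostly in the first 1000 bp after the gene start, and most of the length upstream of the start and of that further downstream was lost. A gene was available to orient 332 of the 428 domains, taken as the gene with the largest overlap (320 protein-coding), and 96 domains overlapped none. Upstream of the gene start, 83.6% of the domains' length was lost. In the first 1000 bp after the start 112 kb was lost and 137 kb kept, or 45.0% lost. Further downstream, inside the gene or past its end, 72.2% was lost. Put the other way, 53.0% of the kept length but 21.3% of the lost length lay in the first 1000 bp. Trimmed domains, which by the rule lost much less, had the same order, with 24.0% lost upstream, 5.03% in the first 1000 bp and 13.9% beyond.

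Across the 4 libraries the pattern was the same in both replicates of a genotype. At 400 bp into the gene, 56.9% and 56.6% of the oriented domains had a peak in val1val2, against 86.7% and 85.5% in wild type. At the gene start, 18.4% had one in each val1val2 library, against 68.1% and 67.2% in wild type. At 500 bp upstream the shares were 5.42% and 6.33% in the val1val2 libraries and 50% and 48.8% in the wild-type libraries. The val1val2 cover thus stood as a narrow peak just inside the gene, and the wild-type cover as a broad one around it.

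**Figure D2:**
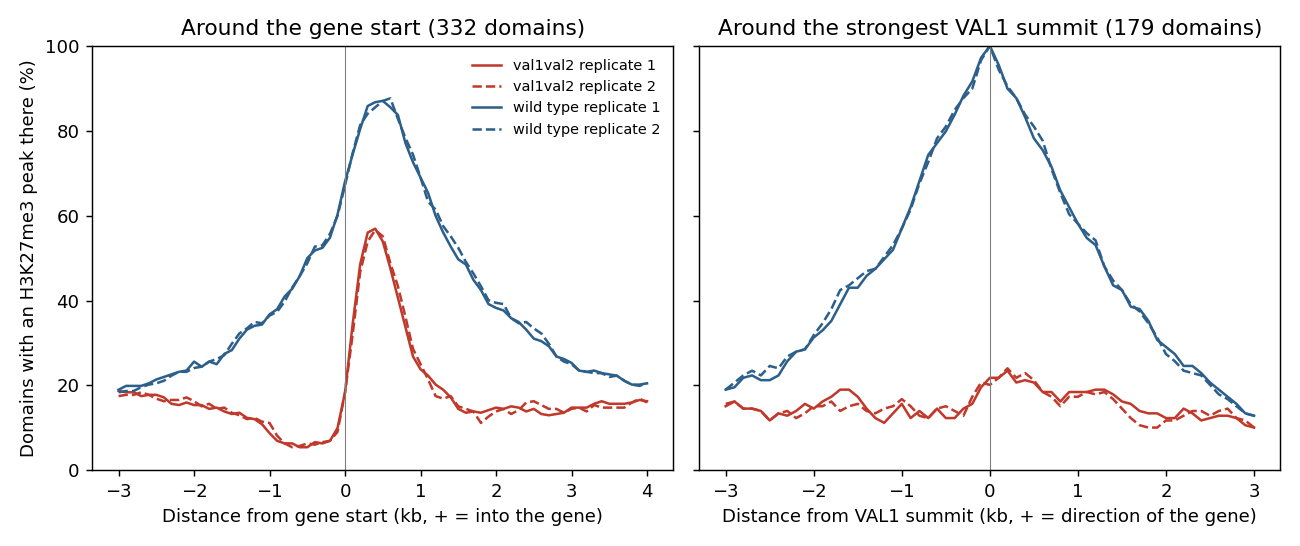
Share of shortened domains with an H3K27me3 peak (y axis, %) at each distance from the start of the orienting gene (left, 332 domains, x axis in kb, positive into the gene) and from the strongest VAL1 summit (right, 179 domains with such a summit and a gene, positive in the direction of the gene), in the 2 val1val2 (red) and 2 wild-type (blue) libraries. In val1val2 the cover is highest 400 bp after the start, and at the VAL1 summit it is 21.8% and 20.1%; wild type is at 100% there because the summit was required to lie in the domain.

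By ends, loss on both sides was the most frequent form. With a lost end counted from 100 bp, 193 domains (45.1%) lost both ends, 89 lost the promoter-side end alone, 71 the far end alone, 63 a single end with no gene to orient them, and 12 were interrupted inside. Among the 160 domains that lost a single end and had a gene, the promoter side was lost in 55.6% (exact 95% interval 47.6 to 63.5%, as for all shares below covering counting error only). The trimmed domains gave 54.7% (52.1 to 57.2%, n = 1540), so a difference between the classes was not detectable. The terminal loss on the promoter side had a median of 490.5 bp and that on the far side 342.5 bp, and it was the larger of both in 167 domains on the promoter side, in 162 on the far side and equal in 3.

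The place of the lost ends is a description, since the rule and the choice of the lost end require an inward displacement. In 173 domains that lost a single end and had a peak in all 4 libraries, the lost end lay inward by a median of 1607 bp. Its position differed by a median of 58 bp between the val1val2 replicates and 65 bp between the wild-type replicates. The opposite end stood a median of 33 bp outside its wild-type position, with replicate differences of 50 bp in val1val2 and 51 bp in wild type. At this end the mean val1val2 edge lay 100 bp or more outside the mean wild-type edge in 70 domains and 100 bp or more inside it in 32. These counts are conditioned on the class, because a loss of 100 bp or more at this end would have put the domain among those that lost both ends, while outward shifts had no such limit.

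Gene starts themselves were lost about as often as any base. Of 291 annotated starts inside shortened domains, 201 lay in the lost part, or 69.1% (63.4 to 74.3%), beside 67.6% of the length. In the 190 domains with a single start, 129 starts were lost. A start lay inside 55.4% of the shortened domains, with a background of 47.9% over all wild-type domains and 62.0% of trimmed ones. Lengths differ between these groups. Per kb the shortened domains held 0.304 starts, against 0.315 over all wild-type domains and 0.327 in trimmed ones. Gene ends lay in the lost part in 162 of 218 cases, or 74.3%.

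By annotation the kept part was mostly exonic and the lost part mostly outside exons. Exons made up 26.7% of the lost length against 54.6% of the kept length, while the 1 kb upstream of genes made up 28.0% of the lost and 11.7% of the kept length. Introns took 11.8% of the lost and 12.2% of the kept length. Other intergenic sequence took 33.6% of the lost and 21.6% of the kept length. Trimmed domains had the same contrast. There exons made up 20.4% of the lost and 46.9% of the kept length, and the 1 kb upstream 36.1% and 17.8%. The GC content of shortened domains moved with this, at 32.1% in lost parts and 38.0% in kept parts, and its part in the peak calls was not tested.

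VAL1 and VAL2 summits, which did not enter the rule, were more frequent in shortened domains than in wild-type domains at large, and denser in the lost part. A VAL1 summit is a position called in both VAL1-GFP lists within 100 bp. Of the shortened domains, 50.2% (45.4 to 55.1%) held one, with a background of 24.6% over all wild-type domains, and with 33.9% of absent, 27.6% of trimmed and 15.2% of wholly covered domains. For VAL2, with a single list, the share was 57.0% and the background 30.4%. Lengths differ between these classes, and per kb the shortened domains had 0.336 VAL1 summits, against 0.400 in absent, 0.135 in trimmed and 0.108 in wholly covered domains.

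Within the domains, 239 of 321 VAL1 summits lay in the lost part, or 74.5% (69.3 to 79.1%), beside 67.6% of the length. This is 0.370 summits per kb in the lost part against 0.265 in the kept part. Of the VAL2 summits, 340 of 456 lay in the lost part, or 74.6% (70.3 to 78.5%), at 0.526 per kb against 0.375 in the kept part. Trimmed domains had the same direction with a larger ratio, 0.251 VAL1 summits per kb lost against 0.116 kept, and 0.427 VAL2 summits against 0.194. With the summits of VAL1-GFP replicate 1 alone, the VAL1 share in the lost part was 66.5%, which is below the lost share of the length, and with domains under 30% cover it was 79.4% beside 80.3% of the length.

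The share was higher for strong VAL1 summits. All 10038 shared summits of the genome were ranked by fold and divided into 5 groups. In the strongest group 95 of 113 summits inside shortened domains were in the lost part, or 84.1% (76.0 to 90.3%), and in the next 51 of 60, or 85% (73.4 to 92.9%). In the middle group the share was 64.9%, in the next lower 68.4% and in the weakest 56.6% (42.3 to 70.2%), all with intervals that include the lost share of the length. In 166 of the 215 domains with a VAL1 summit, or 77.2% (71.0 to 82.6%), the strongest one was in the lost part, beside a mean of 68.9% of the length lost. Its median distance was 865 bp from the start of the orienting gene and 474 bp from the nearest boundary of lost and kept parts, and 58 of 214 were within 200 bp of that boundary.

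**Figure D3:**
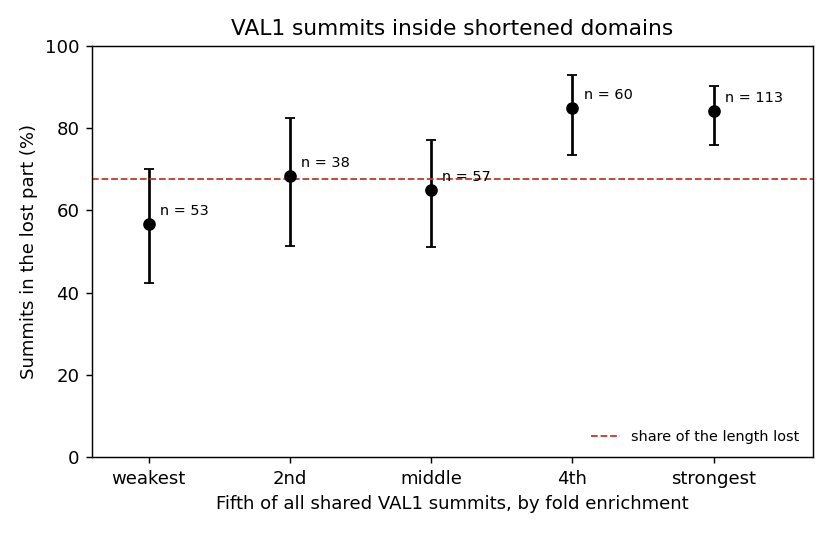
Share of VAL1 summits inside shortened domains that lie in the lost part (y axis, %) for 5 groups of equal size formed from all shared VAL1 summits by fold enrichment (x axis), with exact 95% intervals and the number of summits; the dashed line is the share of the domains' length that was lost, 67.6%. The upper 2 groups are at 85% and 84.1%, and the weakest is at 56.6%.

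Whether the gene start was lost made little difference to the place of the strongest VAL1 summit. Among domains with a single gene start and a VAL1 summit, the strongest summit was lost in 58 and kept in 20 where the start was lost, and lost in 21 and kept in 7 where the start was kept. A VAL2 summit stood within 100 bp of the strongest VAL1 summit in 150 of 215 domains, or 69.8% (63.2 to 75.8%).

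Outside exons the difference between lost and kept parts was wider. There the lost part had 0.359 VAL1 summits per kb against 0.171 in the kept part, and 0.549 VAL2 summits against 0.291. In the 1 kb upstream of genes it was 0.377 VAL1 summits per kb against 0.111, the kept value resting on 4 summits. Inside exons the values were 0.401 against 0.343 for VAL1 and 0.465 against 0.444 for VAL2. The densities in exons thus differed less between lost and kept parts.

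**Figure D4:**
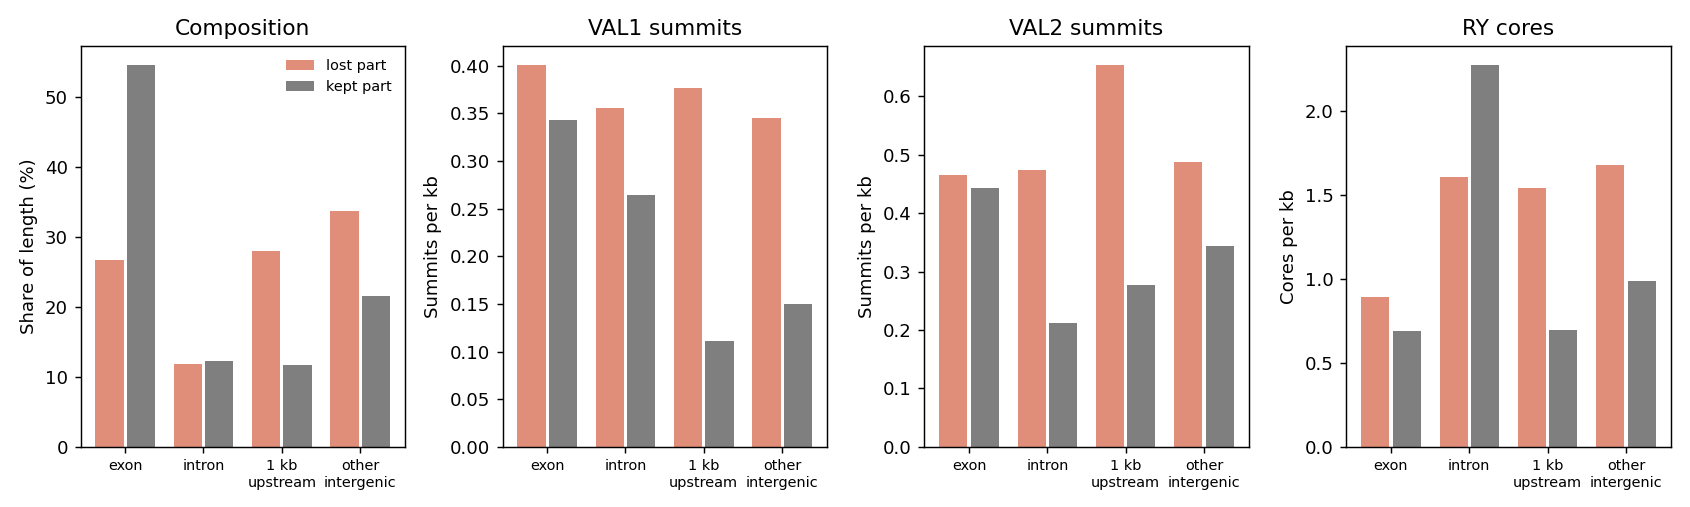
For lost (left bar) and kept (right bar) parts of shortened domains, share of the length by annotation (%), and VAL1 summits, VAL2 summits and RY cores per kb within each annotation. Exons are 26.7% of the lost and 54.6% of the kept length, and the RY core is denser in the kept part in introns.

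RY cores followed the same direction. Of 1211 cores inside shortened domains 918 were in the lost part, or 75.8% (73.3 to 78.2%), at 1.42 per kb against 0.946 in the kept part. A core was present in 80.6% of shortened domains, with a background of 60.1% over all wild-type domains. It was present in 58.8% of absent, 71.6% of trimmed and 45.2% of wholly covered domains, which differ in length. Per kb the shortened domains had 1.27 cores, against 1.58 in absent, 0.774 in trimmed and 0.558 in wholly covered domains. Trimmed domains had the same direction, with 1.23 cores per kb lost and 0.701 kept. Outside exons the densities in shortened domains were 1.61 per kb lost and 1.26 kept, and in exons 0.889 and 0.686. Introns alone ran the other way, with 1.61 per kb lost and 2.27 kept.

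VAL1 summits in the lost part more often had a core nearby than those in the kept part. A core lay within 100 bp of 175 of 239 summits in the lost part, or 73.2% (67.1 to 78.7%). In the kept part this held for 35 of 82, or 42.7% (31.8 to 54.1%). Over all shared VAL1 summits the share was 50.1%. Windows of the same length (201 bp) held a core in 8.09% of the genome and in 11.7% of wild-type domains. Summits in the lost and kept parts also differed in strength and annotation, which were not held equal here. The strongest group by fold held 95 of the 239 lost and 18 of the 82 kept summits. Exons, where cores were less dense, held 69 of the lost and 58 of the kept summits. The windows printed above were picked for their cores and are no sample of these shares: in the 101 bp windows at JAG and NCED9, which are also in lost parts, no core was found.

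In the 223 domains that lost a single end, binding was not limited to the domain. VAL1 summits had a density of 0.310 per kb in the lost part, 0.238 in the kept part, 0.242 in the 1000 bp beyond the lost end and 0.202 beyond the kept end. For VAL2 the densities were 0.498 lost and 0.299 kept, with 0.605 beyond the lost end and 0.538 beyond the kept end, so both flanks were denser than the domain's own parts. RY cores were densest in the lost part, at 1.42 per kb, against 0.733 in the kept part, 0.807 beyond the lost end and 0.520 beyond the kept end.

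Among domains whose gene has a symbol, the 10 with the strongest VAL1 summits all had that summit in the lost part, beside a mean of 68.1% of the length lost. In 3 of these domains, at PUB18, MYB51 and DOG1, weaker VAL1 summits also lay in the kept part. The VAL1 summits given for each locus below are the positions of its strongest shared summit in both lists. The strongest of all belonged to MYB93 (AT1G34670), a MYB factor that restrains lateral root development. Its summit lay 2237 and 2238 bp upstream of the gene start, between genes, where VAL1-GFP folds reached 18.9 and 36.4 and the VAL2-GFP fold 24.0, the highest value of each list. The wild-type domain, chr1:12704511-12710640, was 6130 bp long, and 3511 and 3507 bp of it were lost in val1val2 replicates 1 and 2. The loss was all upstream: the gene itself was covered 100% in both val1val2 libraries, against 98.4% and 100% in wild type. The remaining val1val2 peaks of 3423 and 2812 bp had folds of 2.40 and 2.41, against 1.64 and 1.56 for the wild-type peaks of 6130 and 7568 bp.

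CLE41 (AT3G24770) encodes the TDIF peptide, which keeps vascular stem cells undifferentiated. Its domain, chr3:9044289-9048373, lost 3337 and 2910 bp in the val1val2 libraries, on both ends, with the gene start. The VAL1 summits, at folds of 10.6 and 19.2, were 961 and 954 bp upstream of the start, and the kept piece covered 56.8% and 58.1% of the gene. DOG1 (AT5G45830), a regulator of seed dormancy, lost 2892 and 3043 bp of the 4141 bp domain chr5:18590146-18594286, most of it on the promoter side. Its VAL1 summits, at folds of 8.72 and 18.7, lay 397 and 394 bp upstream of the gene start. The val1val2 peaks of 1249 and 1098 bp both began within the gene, just past its start.

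The side that was lost differed between loci. At MYB51 (AT1G18570), a regulator of indole glucosinolate synthesis, the far side was lost, 3515 and 4377 bp of the 5422 bp domain. Its VAL1 summits, at folds of 6.34 and 15.0, lay 3977 and 3955 bp past the gene start and beyond the gene's end, while 95.2% and 78.1% of the gene stayed covered in val1val2, against 65.4% and 78.6% in the wild-type libraries. SGR9 (AT5G02750), a RING-type ubiquitin ligase of shoot gravitropism, also lost the far side, 2321 and 2314 bp, with VAL1 summits 2626 and 2599 bp past its start. At AtVEX1 (AT5G62850), a sugar transporter gene of the SWEET family, both ends including all of the part over the gene were lost, and the kept piece of 1218 and 1219 bp lay upstream of the gene. There the gene had 0 cover in both val1val2 libraries, against 65.6% and 64.4% in wild type, with VAL1 summits 101 and 105 bp upstream of its start at folds of 6.36 and 13.3.

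**Figure D5:**
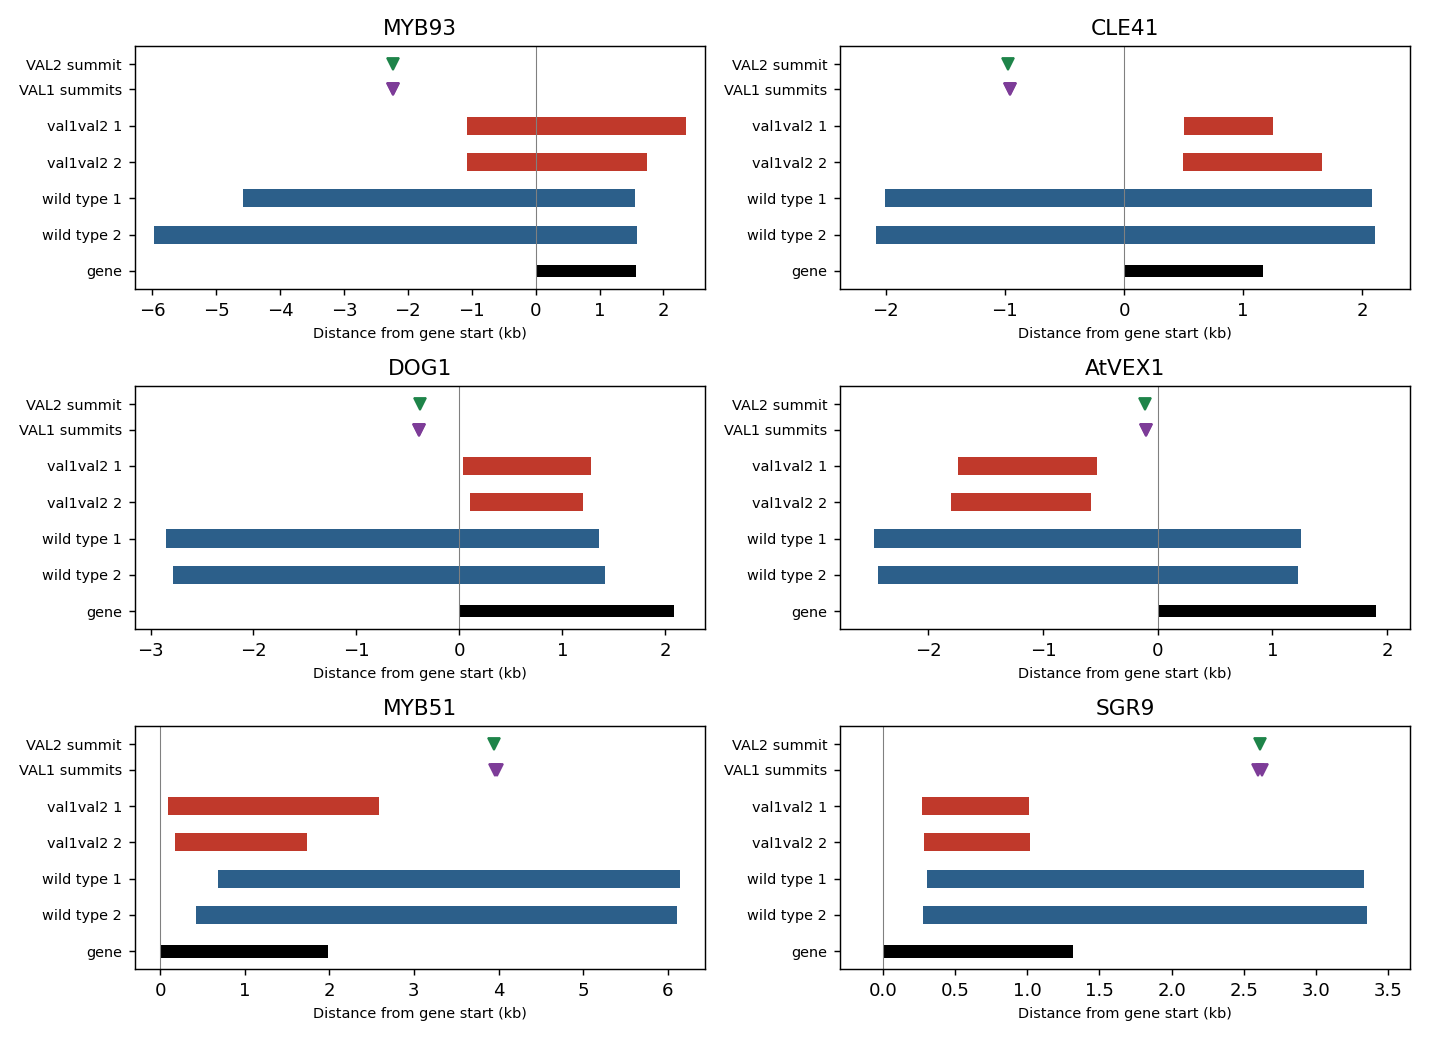
Peaks at 6 shortened domains that hold a strong VAL1 summit in the lost part, drawn by distance from the gene start (x axis, kb). The val1val2 peaks (red) are above the wild-type peaks (blue), and the gene is black. Of the summits, only the strongest shared VAL1 summit, at its position in both lists (purple), and a VAL2 summit beside it (green) are drawn. In each panel these drawn summits lie outside the val1val2 peaks and inside the wild-type peaks. At MYB93 the VAL1 positions are 2237 and 2238 bp upstream of the start. Other summits are not drawn. In the kept part these include 1 VAL1 and 3 VAL2 summits at MYB51, and 1 VAL1 and 1 VAL2 summit at DOG1.

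The other strong sites were within or near genes. At IAMT1 (AT5G55250), an indole-3-acetic acid methyltransferase gene, the VAL1 summit was in an intron, 623 and 599 bp past the start, and 3762 and 3458 bp were lost. The gene had 0 and 10.5% cover in val1val2, against 98.9% and 98.2% in wild type. CLE11 (AT1G49005), a CLE peptide gene, had its summit in an intron, 1460 and 1469 bp past the start, and lost 2382 and 2354 bp. At MYB112 (AT1G48000), a MYB factor of the anthocyanin pathway, the summit was in an exon and 2593 and 2085 bp were lost, with the start under the val1val2 peak of replicate 1 alone. PUB18 (AT1G10560), a U-box ubiquitin ligase of the abscisic acid response, had its summits 60 and 70 bp upstream of the start, and its gene body had 0 cover in both val1val2 libraries, against 29.0% and 26.8% in wild type. Its remaining val1val2 peaks were upstream and weak, with −log10 q under 2 in both libraries.

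Among domains whose gene has a symbol, the 10 that lost the most base pairs lost between 3172 and 5117 bp in a val1val2 library. MYB93, MYB51 and IAMT1 were among them. The longest of these losses was at JAG (AT1G68480), a zinc finger gene of lateral organ growth. Its 8163 bp domain lost 5117 and 4998 bp, but the gene kept 93.3% and 94.5% cover in val1val2, against 100% in both wild-type libraries. The kept peaks there had folds of 2.07 and 2.06, against 1.43 and 1.42 in wild type. ADS1 (AT1G06080), an acyl-lipid desaturase gene, lost 4857 and 4829 bp, most of it on the promoter side, and kept peaks of 481 and 509 bp just inside the gene. The homeobox gene HB4 (AT2G44910) had the same form, with 3619 and 3556 bp lost and peaks of 751 and 814 bp kept inside the gene.

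The other long losses were at a seed storage gene and at hormone synthesis genes. PAP85 (AT3G22640), a vicilin-like seed storage protein gene, lost 3255 and 3172 bp and kept 16.8% and 20.5% of the gene, against 89.7% and 97.2% in wild type. NCED9 (AT1G78390), an abscisic acid synthesis gene of seeds, had no peak in val1val2 replicate 1 and a peak of 289 bp in replicate 2. CCD8 (AT4G32810), of strigolactone synthesis, had 0 gene cover in both val1val2 libraries, against 79.4% and 77.2% in wild type. Its kept part was the end of a neighbouring peak of 3615 bp in replicate 1. YUC4 (AT5G11320), of auxin synthesis, lost 3658 and 3364 bp on both ends and kept its start, with VAL1 summits 1767 and 1760 bp past the start at folds of 2.91 and 4.72.

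Of the gene lists, few members met a shortened domain in the gene or the 1 kb upstream of it. The background was 643 of 33056 annotated genes, or 1.95%. Seed storage and oil body genes had 2 of 13 (OLEO4 and CLO4), seed maturation regulators 1 of 11 (DOG1), gibberellin metabolism 2 of 16 (GA2OX8 and GA3OX2), CLE peptides 2 of 30 (CLE11 and CLE41), auxin synthesis and transport 1 of 26 (YUC4), and meristem, boundary and KNOX genes 1 of 20 (WOX8). No member was met among 7 cytokinin oxidases, 12 floral organ identity, 15 flowering time, 8 late embryogenesis abundant, 23 phase change, 19 Polycomb and VAL, and 7 housekeeping genes. With 1 or 2 members a list, these counts set no list apart.

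The gibberellin genes showed both sides of the pathway. GA3OX2 (AT1G80340), which makes active gibberellin, lost 2971 and 3108 bp, most of it on the promoter side, and kept peaks of 580 and 443 bp inside the gene. The strongest VAL1 summit of the domain lay 2339 and 2334 bp upstream in the VAL1-GFP lists, at folds of 3.46 and 6.37. Of the shared VAL1 summits in this domain, 2 lay in the lost part, this one included, and 2 in the kept part. GA2OX8 (AT4G21200), which inactivates gibberellin, kept its start under peaks of 980 and 923 bp, with folds of 3.16 and 2.90, against 2.32 and 2.10 in wild type. Its VAL1 summits, 1113 and 1116 bp upstream at folds of 3.68 and 6.71, were in the lost part. The GA2OX8 gene had 60.3% and 58.2% cover in val1val2, against 37.0% and 41.6% in wild type. For the GA3OX2 gene the cover was 30.8% and 23.5%, against 40.3% and 40.2%.

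The remaining list members had weak val1val2 peaks and no strong binding. OLEO4 (AT3G27660), an oleosin gene of seed oil bodies, kept peaks of 212 and 508 bp with −log10 q of 0.549 and 0.182, against 14.2 and 14.4 in wild type, and these peaks overlapped each other by few bases. Its VAL1 summits, at folds of 1.57 and 2.48, were in the kept part. CLO4 (AT1G70670), a caleosin gene, and WOX8 (AT5G45980), a homeobox gene of the early embryo, held no VAL1 summit. WOX8 had no peak in val1val2 replicate 1 and a peak of 293 bp in replicate 2.

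Single domains could hold a gene that lost all cover beside one that kept it. Among genes that overlap a shortened domain, 210 had 80% or more cover in both wild-type libraries. Of these, 49 had none in either val1val2 library, 39 kept 80% or more in both and 122 were in between. In 7 domains both kinds were present. The domains were chosen for low val1val2 cover, so these counts follow in part from the rule. The same counts were not made for genes at other wild-type domains. At chr5:21218965-21222724, MYB19 (AT5G52260) had 0 cover in both val1val2 libraries and its convergent neighbour AT5G52270 had 80.2% and 89.6%, where both genes were at 100% in wild type. At chr5:1004647-1010277, the homeobox gene HB51 (AT5G03790) kept 100% in both val1val2 libraries while AT5G03795 had 0, against 92.6% and 89.6% in wild type. At chr1:20366482-20372280, AT1G54540 had 0 and AT1G54550 100% in both val1val2 libraries, and both were at 100% in wild type.

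At the limit of the rule, the named domains just inside it were those of iqd15, GATL2, LTP2, sks16 and TLP1, with between 48.4% and 49.96% of their length covered in val1val2. Those just outside were STP6, HB28, NIP6;1, WAG2 and PBP1, at between 50.4% and 51.3%. The kept part of iqd15 rested on replicate 1 alone.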

How the data were processed

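The 7 peak lists used came from 2 val1val2 and 2 wild-type H3K27me3 samples, 2 VAL1-GFP samples and 1 VAL2-GFP sample. The second VAL2-GFP list and the RNA-seq were not analysed here. The authors called peaks per sample with MACS2 on TAIR10, per the submitters' processing notes, which also name TopHat2 2.1.1, Cufflinks 2.2.1 and Cuffdiff. Not given in the sources used here are the aligner, the control, the MACS2 version and its options. As deposited, fold enrichment is the authors' ratio to local background, pileup is a coverage signal that was not used, and significance stands as −log10 p-value and −log10 q-value. Damaged headers meant that these were read by MACS2 column order.

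Peaks were merged within a list, and domains, lost and kept parts were computed as described above. VAL1 summits were mutual nearest summits of both lists within 100 bp. Genes, without pseudogenes (33056), and sequence were from TAIR10.1, and 0 peaks lay outside its chromosomes. Shares carry exact Clopper-Pearson intervals at 95%, which cover counting error only. No p is given: lists hold no counts, domains are not replicates, and 2 lists against 2 allow no exact permutation p below 0.333. Whether replicates were separate plants is not in the labels, so their spread may be technical. The code was checked on simulated intervals. Tools were Python 3.11.15, numpy 2.4.6, pandas 2.3.3 and scipy 1.17.1.

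Named are all members of 13 gene lists (207 of 220 symbols counted as separate annotated genes) at a shortened domain, the 10 symbol genes whose domains lost most bp in both val1val2 libraries, the 10 with the strongest VAL1 summit, and the 5 on each side of the limit among domains of 1000 bp or more. The genes that share a domain were chosen after their values were seen. The members and lists were chosen with earlier results of these data known. Alternatives were peak and summit thresholds, cover limits, domain lengths, single replicates, gene sets and summit pairing.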

Additional observations from a re-analysis of the deposited data

How the results depend on the processing

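The promoter-side share of single lost ends stayed within 53.7 to 60.6% in 13 alternatives. The number of shortened domains was 256 with H3K27me3 peaks at −log10 q of 2 or more and 69 at 10 or more, 161 with cover under 30% and 975 under 70%. The length lost follows from the limit, at 80.3% under 30% cover and 50.3% under 70%. Under 30% cover the lost part held 87.0% of gene starts, 79.4% of VAL1 summits, 83.7% of VAL2 summits and 84.9% of RY cores, and under 70% it held 50%, 66.8%, 65.6% and 65.2%. At H3K27me3 peaks of −log10 q of 10 or more it held 55.4% of gene starts, beside 64.6% of the length, and 80.1% of RY cores. With the intersection of the val1val2 lists it held 79.4% of RY cores. The VAL1 share was 69.1% with summits of either list, 81.9% with summits at −log10 q of 2 or more and 88.0% at 10 or more, and the VAL2 share was 80.3% and 91.0% at these thresholds. Apart from the runs that left out a replicate, given below, VAL1 shares exceeded the lost share of the length in 13 of 14 alternatives. The exception was cover under 30%. VAL2 shares did so in 11 of 11, RY shares in 10 of 10 and gene-start shares in 5 of 10. An alternative chosen after seeing the data, domains with a peak in both val1val2 lists, is among these. The interval of the VAL1 share included the lost share with summits of either list, at 66.4 to 71.7% beside 67.6%. It also did so at H3K27me3 peaks of −log10 q of 10 or more, at 63.0 to 82.4% beside 64.6%.

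Leaving out each replicate in turn gave 485 to 533 domains, promoter-side shares of 55.1 to 57.6%, gene-start shares of 66.6 to 70.6%, VAL1 shares of 66.5 to 75.5%, VAL2 shares of 74.2 to 77.2% and RY shares of 74.9 to 78.8%. The lowest VAL1 share, without VAL1-GFP replicate 2, lies below the lost share of the length, 67.6%; the cause was not tested. No paired analysis was possible because the results come from no test and peak lists hold no counts. Depth is unknown, and a base without a peak is not shown to lack the mark.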

Other observations

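Gene families were looked at after their values were seen, and their counts are descriptions. Of 75 wild-type domains whose largest overlap was with a MYB gene, 8 were shortened, 1 was absent, 37 were trimmed and 29 wholly covered in val1val2. The shortened ones were at MYB12, MYB14, MYB19, MYB34, MYB51, MYB93, MYB112 and MYB122, and MYB34, MYB51 and MYB122 are the known regulators of indole glucosinolate synthesis. NCED genes make the first dedicated step of abscisic acid synthesis. Of their 6 domains, 3 were shortened (NCED5, NCED6 and NCED9), 1 was absent and 2 were wholly covered. The domain at NCED6 took in only 15.6% of the gene, at its far end. Cover of the NCED6 gene was 100% in both val1val2 libraries, against 56.8% and 55.9% in wild type. Over all domains of genes with a symbol, 134 of 2646 were shortened, or 5.06%.

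Domains that overlapped no gene and lost a single end, 63 in all, had 19 of 21 VAL1 summits in the lost part, beside 70.2% of their length lost. Domains that lost both ends had 132 of 172, or 76.7% (exact 95% interval 69.7 to 82.8%), beside 69.8% of the length. Those that lost the promoter side alone had 50 of 72, or 69.4%, beside 65.7% of the length, and those that lost the far side alone had 32 of 47, or 68.1%, beside 65.6%.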
